A study of Mus musculus with 30 samples.

Results

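*Fgf1* and *Il15* encode secreted factors that muscle makes, and their mRNA levels were followed in the cardiac ventricle of control and Sox6 KO mice over the first 60 days of life. Both genes were taken by symbol, from the platform annotation or from the supplementary tables of the study. The symbols covered 3 probes, 1 for *Fgf1* (ILMN_2701233) and 2 for *Il15*, out of 45281 probes on the array and 17997 that were tested. The brighter *Il15* probe (ILMN_2610234) is in the platform annotation. The *Fgf1* probe and the dimmer *Il15* probe (ILMN_2938704) carry their names only through a supplementary table. That table, called the table of selected genes below, lists the genes that the study found to differ between Sox6 KO and control hearts. A probe of either gene that did not differ could therefore have stayed unnamed. The likeness of the 2 *Il15* probes in their genotype difference is not free of this selection.

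The genes were chosen because of their genotype differences, with *Fgf1* differing from P14 on and *Il15* differing before P14. The differences between Sox6 KO and control hearts are therefore given as a description with no test for these probes. The change with age in the control heart was not the stated ground of the choice and was tested. The same control arrays entered the genotype differences, and the study names *Il15* a hub gene of an adult cluster from them. The p-values for age are therefore not wholly free of selection.

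RNA came from the cardiac ventricle of male mice at postnatal day 1 (P1), P7, P14, P30 and P60, and each array held 1 sample. Controls carried the MCK-Cre transgene alone, and the Sox6 KO mice were Sox6loxp/loxp; MCK-Cre, so that both genotypes carried Cre. MCK is the muscle creatine kinase promoter, which is active in heart and in skeletal muscle, so *Sox6* was also deleted in skeletal muscle and other ventricular cells keep the gene. All mice were of an FVB/B6 hybrid strain. There were 3 replicates in each of 10 groups, 30 arrays in all. The methods speak of triplicate hybridization of each biological replicate, so whether the 3 arrays of a group are separate animals is not certain, and the p-values measure only the spread between these arrays.

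FGF1 is a growth factor without a classical secretion signal. It leaves the cell through a complex with partners such as S100A13, and it binds all of the signalling FGF receptors together with heparan sulfate. IL-15 is a cytokine of the common gamma chain family that is held on the cell surface by its own receptor alpha chain and shown to neighbouring lymphocytes, where it signals through JAK and STAT proteins and sustains natural killer and memory CD8 T cells. Striated muscle is a known source of *Il15* mRNA.

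Signal is given below as the log2 of the intensity after quantile normalization over the 30 arrays, so that a difference of 1 is a doubling. No background was subtracted, which makes fold values of dim probes smaller than they would be otherwise. A probe counts as detected on an array when its intensity lies above the mean plus 2 SD of 936 negative control rows, and the 3 probes were detected on 30 of 30 arrays. Between 13997 and 17954 probes were detected per array, and the lowest correlation between 2 arrays of a group was 0.98.

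No probe carries the name *Sox6*, so the deletion could not be read from the arrays. The study reports lower *Sox6* mRNA in the KO heart by RT-qPCR. As a check of the genotype labels, and not of the deletion, each array was set against probes that part the genotypes at the other ages. The KO arrays lay on the KO side for 77.4% to 94.0% of these 49 to 57 probes, and the control arrays for 0.0% to 11.3%. Of 12 cardiomyocyte markers listed for the ventricle 11 were measured, and all 11 were detected on every array. Some of them are made in the atrium too, and the 3 measured atrial markers were detected in each group as well. Their summed signal was 78309 to 82941 in the KO and 30472 to 75383 in the control at P1. At P7 it was 8267 to 19777 in the KO and 4110 to 4777 in the control, and the genotypes overlapped at P14, P30 and P60. Whether atrial tissue was present was not tested.

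*Fgf1* was dim in the control ventricle at each age and bright in the Sox6 KO ventricle from P14 on. Its KO level was 5.23 times that of the control at P14, 5.13 times at P30 and 2.63 times at P60. At P1 and P7 the arrays of the 2 genotypes overlapped.

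In control hearts, the *Fgf1* signal was 7.20, 7.12 and 7.28 at P1, with a mean of 7.20 ± 0.08 (SD, n = 3). It was 7.27, 7.42 and 7.39 at P7 and 7.75, 7.79 and 7.83 at P14. The 3 P14 arrays lay above all P7 arrays, with means of 7.79 ± 0.04 and 7.36 ± 0.08 (SD, n = 3). At P30 the arrays gave 7.83, 7.67 and 7.62, and at P60 they gave 7.78, 8.10 and 8.12. The control level thus covered a narrow range, from 7.12 to 8.12 over 15 arrays, and the unnormalized intensity was 1.22 to 1.90 times the detection threshold.

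In the Sox6 KO, the *Fgf1* signal was 8.02, 7.66 and 6.91 at P1. Replicates 1 and 2 lay above the 3 controls of that age and replicate 3 lay below them, close to the detection threshold at 1.02 times its value. At P7 the arrays gave 7.29, 8.65 and 7.24, so that replicate 2 was high while the other 2 lay within or just under the control range. The level then rose to 9.79, 10.45 and 10.28 at P14 and stayed at 9.93, 10.25 and 10.02 at P30. These 6 arrays were far above every control array, with unnormalized intensities of 807.5 to 1057.5 against 134.9 to 246.2 in the 15 controls. At P60, replicates 1 and 3 remained high at 9.96 and 10, and replicate 2 was at 8.22, just above the highest control value of 8.12.

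**Figure D1:**
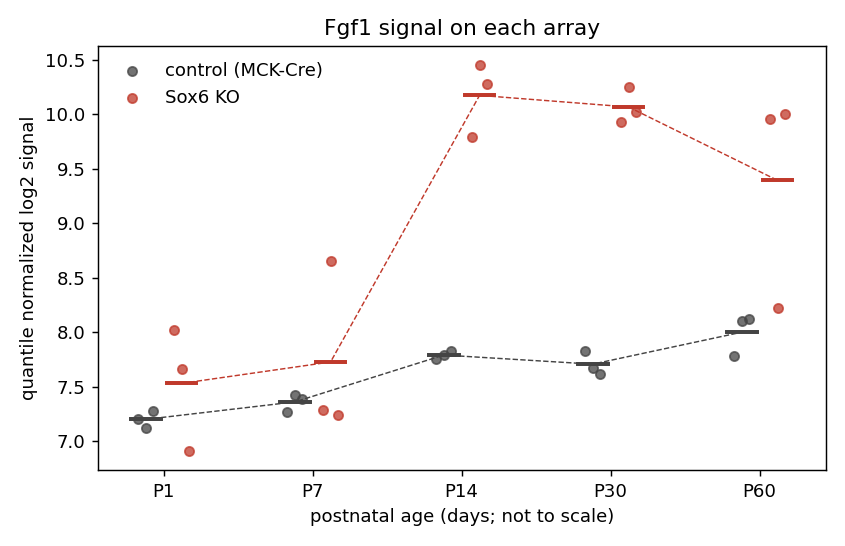
Quantile normalized log2 signal of the *Fgf1* probe (vertical axis) at 5 postnatal ages, with 1 point per array, control in grey and Sox6 KO in red, short bars for the group means and dashed lines joining them. The KO points stand at 9.79 or higher at P14 and P30, while P7 replicate 2 (8.65) and P60 replicate 2 (8.22) stand apart from the rest of their groups.

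The mean difference, Sox6 KO minus control, was 0.33 and 0.37 at the first 2 ages on the log2 scale. It reached 2.39 at P14, held at 2.36 at P30, and stood at 1.39 at P60, each with a standard error of 0.334 from the fit. Ranked among the 17997 probes, the *Fgf1* difference was the 5th highest at P14, the 4th highest at P30 and the 21st highest at P60, compared with 1170th at P1 and 444th at P7. The KO arrays did not overlap the controls at P14, P30 and P60. Of all probes tested, 10.6%, 11.8% and 9.24% had KO arrays all above the control arrays at these ages.

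Single arrays set the size of 3 of these differences. Without KO replicate 2 the P7 difference was -0.09, and with it 0.37. Without KO replicate 2 the P60 difference was 1.98, a 3.95-fold difference. It was 1.11 without KO replicate 1 and 1.09 without KO replicate 3. The P1 difference was 0.64 without KO replicate 3 and 0.08 without KO replicate 1. Both arrays with an unusual *Fgf1* level lay on the KO side for other probes, at 86.0% for P7 replicate 2 and 89.5% for P60 replicate 2. At P14 and P30 the fold difference ranged from 4.75 to 5.98 when any 1 array of that age was left out.

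Ordered by their means, the 10 groups ran from the control at P1 (7.20) to the KO at P14 (10.17). Between neighbours in this order, arrays overlapped everywhere except between the control at P60 (8.0) and the KO at P60 (9.39). By their means this gave 7 low and 3 high groups. The low set held the 5 control ages and the KO at P1 and P7. Single arrays did not part in this way, since KO replicate 2 of P7 (8.65) lay above KO replicate 2 of P60 (8.22).

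From P1 to P60 the *Fgf1* level of the control heart rose by 0.80 on the log2 scale (1.74-fold, limma adjusted p = 0.0452), while 27.6% of all probes were higher at an adjusted p under 0.05 in that comparison. The step from P7 to P14 was 0.43 (limma adjusted p = 0.404), and the other steps between neighbouring ages were 0.16, -0.08 and 0.29 (adjusted p of 0.793, 0.882 and 0.587). The spread used in these tests is shared by the 10 groups and holds the wide scatter of the KO arrays. In a fit of the control groups compared alone, the P7 to P14 step passed at an adjusted p of 0.000589. The rise from P1 to P60 did not pass without the arrays of replicate 1 (adjusted p = 0.0801) or of replicate 3 (0.154). With background subtracted by way of the negative controls, the rise was 1.6 on the log2 scale (0.0148).

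*Il15* had another course. Its brighter probe lay at 2.21 times the detection threshold or higher on each array and its dimmer probe at 1.63 times or higher. Both climbed with age in each genotype, and lay below the control in all Sox6 KO arrays of P1 and P7, whereas the genotypes overlapped at P14, P30 and P60. The brighter probe was 1.66 times lower in the KO at P1 and 1.59 times lower at P7. The dimmer probe was 1.47 times lower at P1 and 1.5 times lower at P7.

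In control hearts, the brighter *Il15* probe gave 8.92, 9.03 and 8.95 at P1 and 9.46, 9.56 and 9.57 at P7. It gave 10.08, 10.27 and 10.28 at P14, 10.77, 10.97 and 10.96 at P30, and 11.23, 11.41 and 11.47 at P60. Each age lay wholly above the one before, and the level at P60 was 5.28 times that at P1 (a log2 difference of 2.40 with a standard error of 0.132, limma adjusted p = 8.61e-15). This was the 53rd highest rise among the probes tested, of which 10.5% were called higher. A call needs 1.5-fold or more and an adjusted p under 0.01.

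The 4 steps of the brighter probe between neighbouring control ages were 0.56 (limma adjusted p = 0.00214), 0.68 (0.000476), 0.69 (0.000185) and 0.46 (0.0124) on the log2 scale. At an adjusted p under 0.05, 12.1%, 9.53%, 16.2% and 11% of all probes rose in these steps. The dimmer probe rose from P1 to P7 by 0.65 (adjusted p = 0.000121) and from P14 to P30 by 0.91 (6.92e-07), whereas its steps from P7 to P14 (0.20, adjusted p = 0.243) and from P30 to P60 (0.14, 0.422) did not pass. Over the whole span it rose by 1.90, or 3.74-fold (adjusted p = 7.5e-14). The last step of the brighter probe did not pass without the arrays of replicate 2 (adjusted p = 0.111) or of replicate 3 (0.0689).

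The 2 *Il15* probes thus disagreed on when the gene rose. From P7 to P14 the brighter probe gained 0.68 and the dimmer one 0.20, and from P30 to P60 they gained 0.46 and 0.14. Over the 10 group means the probes correlated at r = 0.992, and over the deviations of the 30 arrays from their group means at r = 0.705. These are descriptions over arrays that both probes share, and which transcripts each probe reads was not examined here.

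In the Sox6 KO, the brighter *Il15* probe gave 8.59, 8.25 and 7.86 at P1 and 8.83, 8.91 and 8.85 at P7. All 6 KO arrays lay below the controls of their age, and the P7 arrays of the KO also lay below the P1 arrays of the control, at means of 8.86 ± 0.04 and 8.97 ± 0.06 (SD, n = 3). At P14 the KO arrays gave 9.70, 9.91 and 10.20, of which only replicate 3 reached the control range. At P30 they gave 10.82, 11.28 and 10.99, and at P60 11.40, 11.59 and 11.62, overlapping the controls.

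The dimmer probe gave 7.83, 7.52 and 7.47 in the KO at P1, against 8.02, 8.23 and 8.22 in the control. At P7 it gave 8.20, 8.21 and 8.27 against 8.62, 8.96 and 8.84. The genotypes did not overlap at either age, and the KO arrays of P7 overlapped the control arrays of P1. From P14 on the dimmer probe overlapped between genotypes, with KO arrays at 8.74, 9.07 and 9.08 at P14, 9.72, 10.31 and 9.89 at P30, and 10.26, 10.16 and 10.11 at P60.

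**Figure D2:**
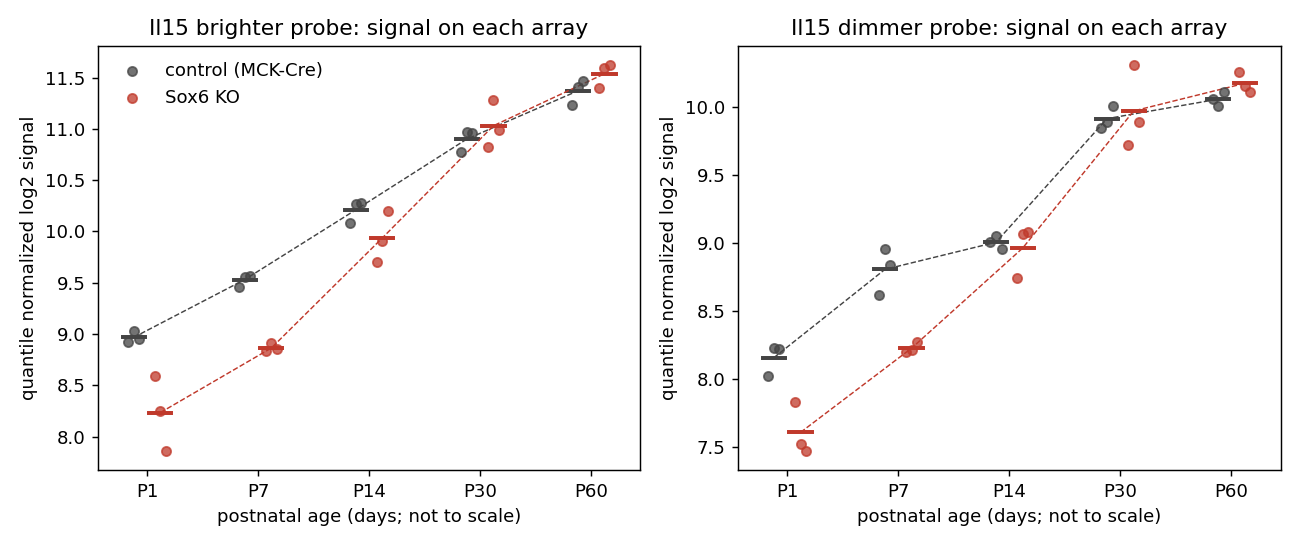
Quantile normalized log2 signal of the brighter (left) and dimmer (right) *Il15* probe at 5 postnatal ages, with 1 point per array, control in grey and Sox6 KO in red, short bars for the group means and dashed lines joining them. On both probes the red points lie below the grey ones at P1 and P7 and mix with them from P14 to P60, while all groups climb with age.

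For the brighter probe, the difference of Sox6 KO minus control over the 5 ages was -0.73, -0.67, -0.27, 0.13 and 0.17, with a standard error of 0.132. For the dimmer probe it was -0.55, -0.58, -0.04, 0.06 and 0.11, with a standard error of 0.115. The sign was negative on both probes up to P14 and positive at P30 and P60, where arrays overlapped and where the sign of the dimmer probe was not stable. Scaling each array to its median turned it to -0.06 at P30 and -0.01 at P60, and leaving out KO replicate 2 gave -0.11 at P30. Leaving out KO replicate 1 at P14 gave 0.07. Of all probes, 13% at P1 and 12.4% at P7 had KO arrays all below the control arrays, and the brighter probe's difference ranked 136th from the lowest at P1 and 85th at P7.

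In the KO, the brighter probe rose by 1.08 from P7 to P14 and by 1.09 from P14 to P30, compared with 0.68 and 0.69 in the control. The dimmer probe rose by 0.74 and 1.01 in the KO, compared with 0.20 and 0.91 in the control. The larger gains of the KO over these ages brought its level to that of the control by P30.

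**Figure D3:**
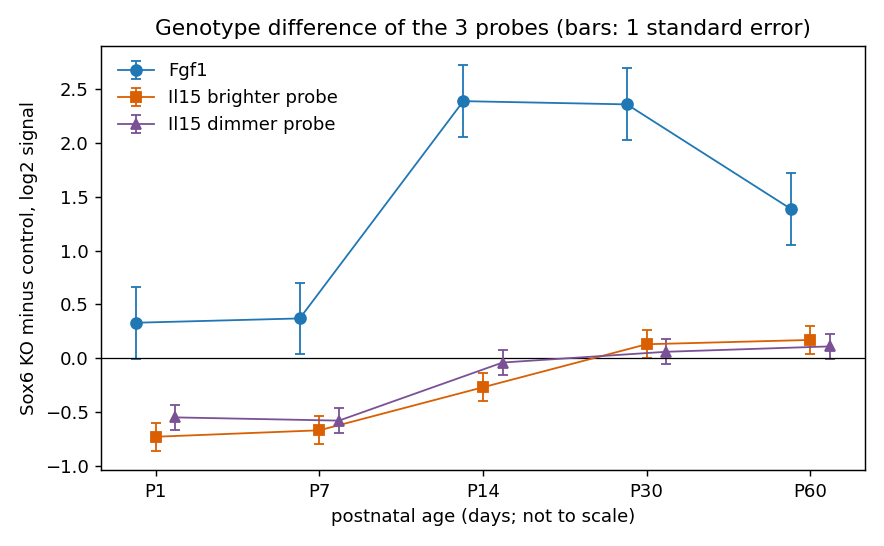
Sox6 KO minus control difference in log2 signal (vertical axis) of the *Fgf1* probe and the 2 *Il15* probes at 5 ages, with bars of 1 standard error from the fit. *Fgf1* moves from 0.37 at P7 to 2.39 at P14, and the *Il15* probes move from -0.67 and -0.58 at P7 to -0.27 and -0.04 at P14.

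Between P7 and P14, then, the genotype difference of *Fgf1* widened and that of *Il15* narrowed. As a description of the array with the members left out, 6 probes were called higher in the KO at P14 and P30 and were not called at P1 or P7. Of these, 4 have gene names, picked here by their values: *Slc40a1* (the iron exporter ferroportin), *Parp2* (a DNA repair enzyme), *Art4* and 2210407C18Rik. With the members left out again, 5 probes were called lower at P1 and P7 and not at P14, P30 or P60. The 3 with names, picked in the same way, are *Ciapin1*, *Acss1* and the endothelial tight junction gene *Cldn5*. No call is given for the *Fgf1* and *Il15* probes, since they were chosen on the genotype comparison. *Cldn5* was also lower at P30 at the looser limit of an adjusted p under 0.05. Across all probes, 0.528% were called higher at P14, 0.828% higher at P30, 1.3% lower at P1 and 0.461% lower at P7.

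The likeness of other genes to each member was measured by Pearson's r over the 10 group means among 6458 named genes. The groups share arrays for all genes, so these values are descriptions. The genes most like *Fgf1* were *Snapc4*, a subunit of the small nuclear RNA activating complex (r = 0.949), and *Trub2*, a pseudouridine synthase (r = 0.943). 2210407C18Rik (0.931) and *Kansl1l* (0.889) were also among the 5 most alike, both named through the supplementary table alone. The range of *Snapc4* over the groups was small, from 7.48 to 8.34, whereas 2210407C18Rik went from 6.75 in the KO at P7 to 9.12 in the KO at P60.

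The brighter *Il15* probe was most like *Ggct* (r = 0.993), *Tgoln1* (0.992), *Sgca* (0.989), *Pomgnt2* (0.988) and *Entpd5* (0.987). The dimmer probe was most like *Tgoln1* (0.991), *Fam234a* (0.990), *Entpd5* (0.990), *Dnajc28* (0.989) and *Txlnb* (0.989), so that *Tgoln1* and *Entpd5* stood in both sets. *Sgca* encodes alpha-sarcoglycan of the muscle membrane, and its group mean rose from 9.36 to 10.86 between P1 and P60 in controls and from 9.09 to 10.81 in the KO. *Txlnb* encodes a taxilin made in muscle, and it rose from 8.96 to 10.97 in controls and from 8.32 to 10.80 in the KO.

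Other genes of both pathways were read from lists, with 1 probe per gene and with *Fgf1*, *Il15* and genes named only through the table of selected genes left out of the counts. A list gene is called higher or lower at a limma adjusted p under 0.05. In the KO comparison the shares of all probes that were higher were 8.82%, 3.02%, 1.47%, 3.16% and 2.13% over the 5 ages, and the shares that were lower were 7.91%, 2.38%, 1.13%, 3.69% and 2.39%. The median difference over all probes was -0.01 at P1 and 0.0 at the later ages. Of the 57 pathway and secreted factor calls given below with an adjusted p, 13 held in fits without any 1 of the replicate numbers, and 44 missed the threshold in at least 1 such fit. Calls named below without an adjusted p were not followed gene by gene in these fits. The 13 were *Anxa2* at P1 and P30, *Bmp4* at P14 and P60, *Ccn1*, *Edn1* and *Egr1* at P14, *Ccnd1* at P7, *Cxcl12* at P1, *Igf2* at P30, *Nppb* at P1 and P30, and *Socs2* at P60.

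Of 22 FGF ligands, 1 other than *Fgf1* was measured, and it is an intracellular member of the family that is not secreted. *Fgf13* was higher in the KO at P30 by 0.46 (limma adjusted p = 0.00398) and did not pass at the other ages. Among receptors and co-receptors, 8 of 22 were measured. *Fgfrl1*, a receptor without a kinase domain, was the only receptor among them, and its difference lay between -0.18 and 0.06 over the 5 ages with no adjusted p under 0.18. The glypican *Gpc1*, a heparan sulfate carrier, was higher at P1 by 0.43 (adjusted p = 0.0151). *Agrn*, the heparan sulfate proteoglycan agrin, fell by 0.39 at P7 (0.00842), by 0.37 at P14 (0.0219) and by 0.48 at P30 (0.00114) in the KO relative to the control. The median of the 8 genes was 0.11, -0.03, 0.05, -0.17 and -0.08 at the 5 ages.

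Of 13 genes for release and intracellular partners of FGF1, 9 were measured. At P14, 0 of the 9 passed in either direction (median 0.14), a count close to the 1.47% and 1.13% of all probes. *Anxa2*, annexin A2, was higher at P1 by 0.57 (limma adjusted p = 0.000469) and lower at P30 by 0.63 on the log2 scale (-0.63, 0.000296). *Fibp*, the FGF1 intracellular binding protein, was higher in the KO at P30 by 0.27 (0.0258) and at P60 by 0.31 (0.0135).

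The list of FGF signal transduction and feedback had 16 counted genes of 44. At P1, 5 of them were higher and 1 was lower, with *Spred1*, an inhibitor of this pathway, at 0.64 (limma adjusted p = 0.000689), the adaptor *Shc1* at 0.47 (0.00209), *Pik3r1* at 0.47 (0.00674) and the cyclin *Ccnd1* at 0.46 (0.012). *Sulf1*, a heparan sulfate editing enzyme, was also higher and the adaptor *Crk* was lower. The count of 5 became 7, 2 and 1 without the arrays of replicates 1, 2 and 3. At P7, *Ccnd1* was higher by 0.76 (0.000264) and the immediate early gene *Egr1* was lower at -1.18 (0.00923). At P14, *Egr1* alone passed, at -1.6 (0.000723). *Fos*, which is named only through the table of selected genes, was at -1.37 at P7 (0.0113).

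At P30, where *Fgf1* stayed high, 1 gene of the 16 passed, *Sulf1* at -0.44 (limma adjusted p = 0.0211). At P60, *Sulf2*, which edits heparan sulfate as well, was higher by 0.44 (0.00924) and *Pik3r1* was at -0.44 (0.0267). The medians of the list were 0.09, -0.02, 0.04, -0.05 and 0.03. *Dusp6* and *Etv1* of this list were measured and passed at none of the 5 ages, while others of the list, such as *Egr1*, passed at some. Whether the *Fgf1* level acted on any of these genes was not tested.

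For IL-15, 9 of 20 receptor and signalling genes were measured, and none of the receptor chains was among them. The kinase *Jak1* lay between -0.20 and 0.20 and passed at no age. *Stat3*, a transcription factor of this and other cytokine pathways, was higher at P14 by 0.41 (limma adjusted p = 0.0218) and at 0.09 to 0.17 at the other ages. At P7, 0 of the 9 genes passed, a count close to the 3.02% and 2.38% of all probes. At P1 the survival factors *Mcl1* (0.64, 0.000716) and *Bcl2* (0.25, 0.0321) were higher. The death factor *Bcl2l11* was higher at P30 (0.75, 0.00109) and P60 (0.52, 0.0291), and the feedback inhibitor *Socs2* at P60 (1.42, 0.00031). Of the list made for common gamma chain cytokines and receptors, only *Il13ra1* was measured besides *Il15*. It encodes a chain of the IL-13 receptor, which does not hold the common gamma chain, and it was at -0.45 at P7 (0.00984).

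**Figure D4:**
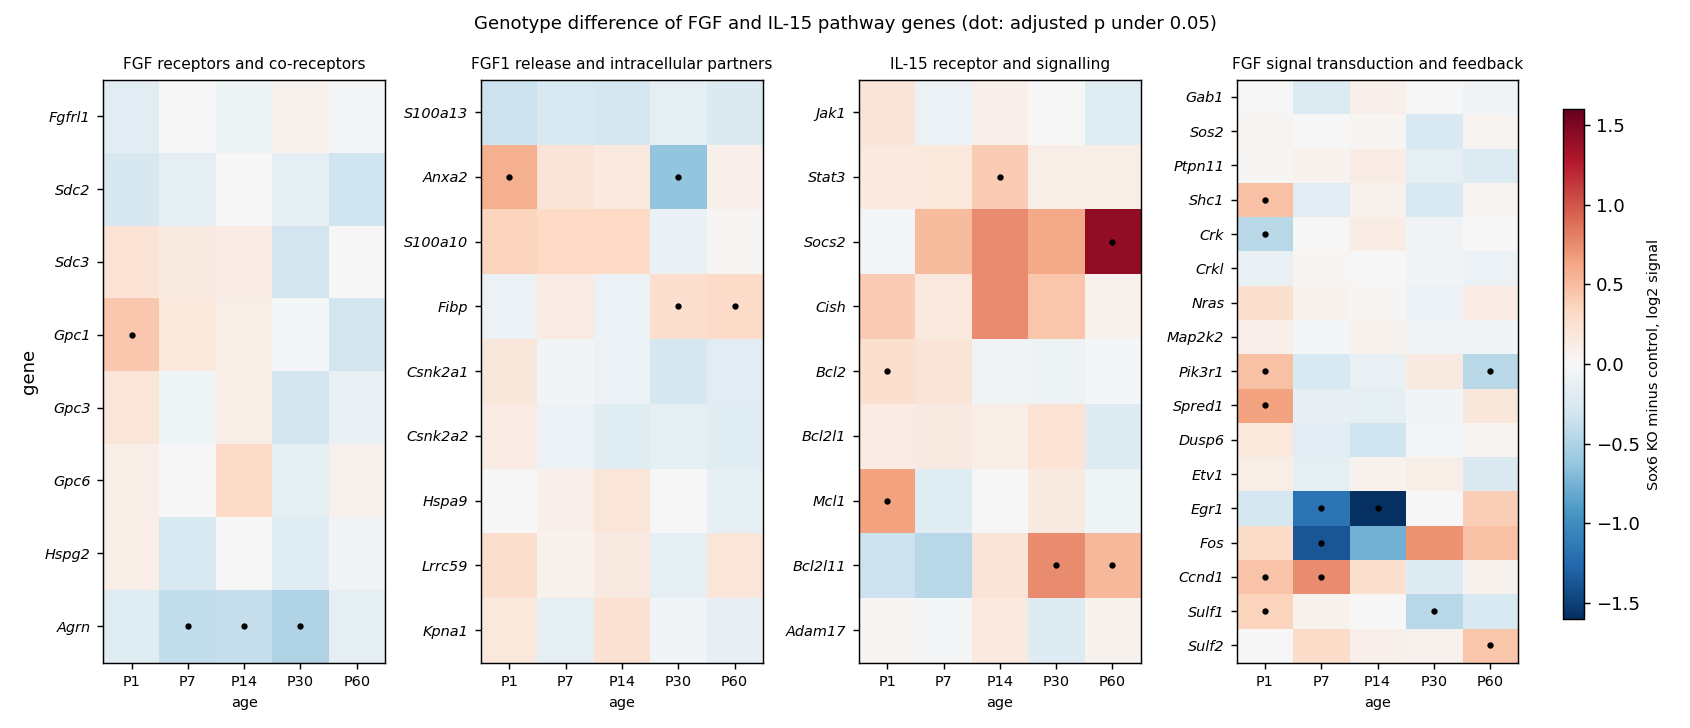
Sox6 KO minus control difference in log2 signal (colour, red higher and blue lower in the KO) for the measured genes of 4 pathway lists at 5 ages, with a dot where the limma adjusted p is under 0.05. *Egr1* at P14, *Socs2* at P60 and *Fos* at P7 have the strongest colours, and the receptor and release lists hold few dots at P14 and P30.

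Interferons are known inducers of *Il15*, and 26 of 43 interferon response and MHC class I genes were measured. At P7, 0 were higher and 6 were lower in the KO, with a median of -0.25. *H2-K1* (-1.08, limma adjusted p = 0.000622) and *H2-D1* (-1.07, 0.00377) encode MHC class I chains, *B2m* (-0.93, 0.00784) encodes their partner, and *Psmb8* (-0.87, 0.000877) a subunit of the immunoproteasome. The other 2 were *Psmb9* and *H2-T10*. The count of 6 became 0 without the arrays of replicate 2 and 2 without those of replicate 3. At P1, when *Il15* was also low, 1 gene was higher (*Ifi27*, 0.32, 0.00952) and 2 were lower (*Irf3*, -0.49, 0.00427, and *Psme2*, -0.36, 0.00621), with a median of -0.05. At P14 the guanylate binding gene *Gbp2* was lower (-0.85, 0.0164). At P30 *Psmb10* (-0.38, 0.0448), *Ifitm2* (-0.35, 0.00484) and *Ifi27* (-0.32, 0.0158) were lower, and at P60 *Ifi27* was higher (0.36, 0.00814). The part of interferon in the *Il15* differences was not tested.

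Markers of macrophages moved beside these genes. Of 28 such markers 11 were measured, and 6 of them were lower in the KO at P7, with a median of -0.38. The summed signal of the 11 was 3473 to 3658 in the KO and 4663 to 5622 in the control at P7, and 10012 to 10562 against 13610 to 16973 at P30, where 5 were lower. Without the arrays of replicate 2 the counts at both ages became 1, and without those of replicate 3 they became 3. At P1, where the *Il15* difference was as large as at P7, 2 macrophage markers were higher and 0 lower, and the summed signal was 3445 to 4646 in the KO and 3386 to 3739 in the control. The 2 higher ones were *C1qb* and *Lyve1*, and those lower at P30 were *Laptm5*, *Lyz1*, *Lyz2*, *C1qc* and *Mpeg1*. Among 25 lymphocyte and natural killer cell markers only *Cd8b1* was measured, and it passed at no age. The part of macrophage numbers in these differences was not tested. In bulk tissue, fewer cells of a type and less RNA per cell cannot be told apart.

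Of the 11 ventricular markers, 2 were lower in the KO at P1, *Myh6* and *Tnni3*, with a list median of -0.16. At P7, 1 was lower (*Ryr2*, median -0.15), 0 passed at P14, and *Actc1* was higher at P30 and at P60. The summed signal of the 11 was 198848 to 208395 in the KO and 207466 to 245224 in the control at P1, which overlap, and 263188 to 268991 against 258619 to 269518 at P14. At P30 the summed signal was 287259 to 287428 in the KO and 258986 to 273371 in the control, which do not overlap. The list median was 0.03, 0.11 and 0.02 at P14, P30 and P60, beside *Fgf1* differences of 2.39, 2.36 and 1.39. The part of cardiomyocyte content in the *Fgf1* and *Il15* differences was not tested.

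Among markers of other cells, none of 10 endothelial, 3 atrial, 8 skeletal muscle and 2 erythroid genes passed at P14, while 2 of 10 fibroblast genes, *Col1a1* and *Col3a1*, were higher. At P1 and P7, when *Il15* was low in the KO, *Lum* and *Dcn* of the fibroblast list and *Cldn5* of the endothelial list were lower at both ages, as were *Tcf21* at P1 and *Tie1* at P7. *Emcn*, *Vwf*, the atrial *Stard10* and the erythroid *Alas2* were higher at P1, *Nppa* and the atrial *Myl4* were higher at P7, and of the skeletal muscle list *Mb* was lower at both ages and *Tnnc1* at P1. At P30, 5 fibroblast genes were lower (*Fbn1*, *Lum*, *Mfap5*, *Col3a1* and *Fn1*), *Emcn*, *Cldn5*, *Acta1* and *Hba-a1* were lower, and *Myl4* was higher. At P60, *Fbn1*, *Col3a1* and *Tnnt1* were higher and *Acta1* was lower. The part of these cells in the *Fgf1* and *Il15* differences was not tested.

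Of 54 other factors known to be secreted by muscle or heart, 23 were counted. At P14, 0 of them were higher, where 1.47% of all probes were, and 3 were lower: *Ccn1* (-1.28, limma adjusted p = 4.39e-06), *Edn1*, the vasoconstrictor endothelin-1 (-0.84, 1.86e-05), and *Bmp4* (-0.73, 1.94e-05). At P1, 3 were higher and 6 lower, among them the natriuretic peptide *Nppb* (1.74, 0.000221), *Ccn2* (1.46, 0.00554) and the chemokine *Cxcl12* (-0.92, 0.000276). Without 1 replicate number these counts ranged from 1 to 6 higher and from 3 to 8 lower. *Angptl4*, named only through the table of selected genes, was at -2.53 (0.000574). At P7, *Nppa* (1.38, 0.00684) and *Nppb* (1.06, 0.035) were higher, and *Dcn* (-0.38, 0.033) and *Bmp4* (-0.35, 0.0274) were lower.

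At P30, 0 were higher and 5 were lower: *Nppb* (-1.66, limma adjusted p = 0.000704), *Igf2* (-0.74, 0.000203), *Serpinf1* (-0.49, 0.0406), *Sparc* (-0.41, 0.00978) and *Igf1* (-0.33, 0.0304). The count of 5 became 2 without the arrays of replicate 2 or of replicate 3, and the counts at P14 stayed at 0 and 3. At P60, *Fstl1* was higher (0.56, 0.0439) and *Bmp4* lower (-0.62, 0.000117).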

How the data were processed

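Ventricular RNA of 30 samples was hybridized to Illumina MouseWG-6 v2.0 arrays. The authors exported signal intensity values per probe and deposited them without normalization between arrays. The 30 detection columns, empty in all rows, were not used. A second deposited table holds the authors' filtered and quantile normalized intensity for 6784 probes and served as an alternative. Neither an export program version nor a genome build is given in the sources used here.

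Negative controls were 936 of 974 control rows, read from their IDs. Probes above their mean plus 2 SD on all 3 arrays of at least 1 group (17997, of which 6619 have a gene name) were log2 transformed, quantile normalized and fitted by lmFit, contrasts.fit and eBayes of limma 3.58.1 (R 4.3.3), with 1 mean per group. Each limma p is two-sided and Benjamini-Hochberg adjusted over all 17997 probes within a comparison. There were 5 comparisons of control ages and 5 of genotypes. Calls need 1.5-fold or more and an adjusted p under 0.01, as in the study's methods. The fit was tested on simulated data. Precision is limited by the number of arrays.

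The members, the 16 gene lists and the tests were chosen with earlier results of these data known. A list takes the probe with the highest mean per gene. Named genes were the members, up to 4 list genes with the largest difference among those past the test, all genes of a count of 5 or fewer, and the 5 genes most like each probe. An item that this rule names is not reported here. No sequences are printed.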

Additional observations from a re-analysis of the deposited data

Results flagged for a closer look

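The list genes were also tested for a KO effect that differs between ages, with limma's F test over the differences at P7, P14, P30 and P60 against that at P1. Over all probes, 6.23% passed at an adjusted p under 0.01. Of the 95 measured genes of the 8 pathway lists, named or not, 16 passed (16.8%). These include *Fos* and *Angptl4*, which have names only through the table of selected genes. The share is therefore not free of that selection and cannot be set directly against that of all probes. The members were not put to this test, since they were chosen for such a difference. With 3 arrays per group, single arrays were not tested as outliers.

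The genes below were named for a KO difference at 1 or more ages, so that passing this test is no independent evidence. Of the FGF list genes that are named above, 7 passed. *Anxa2* passed at 7.55e-05, going from 0.57 at P1 to -0.63 at P30. *Egr1* passed at 3.26e-03, from -1.6 at P14 to 0.39 at P60. *Fos* passed at 8.43e-03, from -1.37 at P7 to 0.72 at P30. *Ccnd1* passed at 3.46e-03, from 0.76 at P7 to -0.21 at P30. *Pik3r1* passed at 3.10e-03, from 0.47 at P1 to -0.44 at P60. *Shc1* passed at 7.63e-03 and *Spred1* at 9.25e-03, both highest at P1 (0.47 and 0.64).

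On the IL-15 and interferon side, *Bcl2l11* passed at 2.71e-04, from -0.45 at P7 to 0.75 at P30. *Ifi27* passed at 7.77e-04, from 0.32 at P1 to -0.32 at P30 and 0.36 at P60.

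Among the other secreted factors, *Nppb* passed at 1.94e-05, from 1.74 at P1 to -1.66 at P30. *Edn1* passed at 6.97e-05, from 0.33 at P1 to -0.84 at P14. *Ccn1* passed at 7.16e-04, from -0.08 at P1 to -1.28 at P14. *Igf1* passed at 8.12e-04, from -0.33 at P30 to 0.30 at P60. *Igf2* passed at 1.14e-03, from 0.31 at P1 to -0.74 at P30. *Angptl4* passed at 1.16e-03, from -2.53 at P1 to 1.07 at P30.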

How the results depend on the processing

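The *Fgf1* differences between genotypes kept their direction at P14, P30 and P60 under the alternatives that hold its probe. The authors' processed table holds neither it nor the dimmer *Il15* probe. Subtracting background with the negative controls (normexp) widened them to 3.05 at P14 and 3.08 at P30, and scaling each array to its median gave 2.21 at P30. The same background step gave -0.79 for the brighter and -0.78 for the dimmer *Il15* probe at P7, and -0.94 for the dimmer one at P1. Median scaling gave 0.04 for the brighter and -0.01 for the dimmer probe at P60, and -0.06 for the dimmer one at P30. The cause of these shifts was not tested.

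In control hearts, the *Fgf1* rise from P1 to P60 stayed at 0.80 with no filter on dim probes (adjusted p = 0.0931) and with the replicate block (0.0543), neither under 0.05, and ranged from 0.71 to 0.91 without 1 replicate. With normexp it was 1.6 (0.0148). Fitting only the groups compared let the *Fgf1* steps of 0.43 from P7 to P14 (0.000589) and 0.29 from P30 to P60 (0.0409) pass. The last step of the brighter *Il15* probe was 0.48 after normexp (0.0548) and 0.44 to 0.48 without 1 replicate. The dimmer *Il15* difference at P1 ranged from -0.73 to -0.45 without 1 replicate. Same-numbered arrays did not deviate together, so the numbers do not pair the samples. With the replicate block, 533 probes were called at P1 against 538.

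In the 5 control comparisons, in the order P7 against P1, P14 against P7, P30 against P14, P60 against P30 and P60 against P1, normexp called 1835, 1395, 2970, 1588 and 6979 probes and the processed table gave 533, 351, 741, 330 and 2076. Between genotypes, normexp called 999 at P1, 519 at P30 and 379 at P60, and the processed table gave 305, 94, 69, 146 and 74 over the ages. Only the groups compared gave 44 at P1, and probes detected on all 30 arrays 149 at P7. Without 1 replicate the P1 count ranged from 224 to 1096, and those of the later ages from 148 to 199, 77 to 135, 155 to 259 and 111 to 164. Without single arrays picked after seeing the data they were 363 (KO replicate 3, P1), 191 (KO replicate 2, P7) and 161 (KO replicate 2, P60). Of list counts under the alternatives, 1519 moved by less than 1.5 times and 241 by more. Named gene calls kept their side of the threshold in 492 cases and lost it in 132, with no change of sign.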
